A study of Mus musculus with 8 samples.

Results

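The AP-1 and immediate early genes described here are 10 genes, *Fos*, *Fosb*, *Fosl2*, *Jun*, *Junb*, *Jund*, *Egr1*, *Ier2*, *Atf3* and *Dusp1*. Each was found by its symbol in a table of 55247 rows, and 9 of the 10 passed a filter on low counts that left 11616 rows for testing. *Atf3* did not pass and was taken from a fit without the filter. The counts came from RNA sequencing of back skin that had received EL4, a line of mouse T lymphoma cells, on Day 0. All 8 mice were wild-type females of 8 weeks (C57BL/6J by the labels, and C57BL/6JJmsSlc by the methods). On Day 14, 4 mice were given 0.1 mg of bexarotene, which activates retinoid X receptors, by intraperitoneal injection. The other 4 mice were given the vehicle, and the methods dissolve the drug in dimethyl sulfoxide and corn oil. Tumors were collected on Day 16, 1 library per mouse, and the question was which genes differed between bexarotene-treated and vehicle-treated tumors. The tumor is a transplanted line in an otherwise healthy host, and each library is a mixture of lymphoma, immune and skin cells. Fewer cells of a type and less RNA per cell cannot be told apart in such a mixture.

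AP-1 is a transcription factor made of a pair of basic leucine zipper proteins. Fos proteins (from *Fos*, *Fosb* and *Fosl2*) cannot pair with themselves and join a Jun protein (from *Jun*, *Junb* or *Jund*), while Jun proteins can also pair with each other or with ATF proteins such as Atf3. Immediate early genes are switched on within minutes of a growth factor, antigen or stress signal, without new protein synthesis, and their transcripts are short-lived. *Egr1* encodes a zinc finger factor, *Ier2* a nuclear protein of the same early wave, and *Dusp1* a phosphatase that removes the activating phosphates from MAP kinases and so limits the signal. *Jund* differs from its relatives in being made at a steady level in many resting cells.

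MAP kinase and cyclic AMP signals are known to reach many immediate early genes through sites close to the start of transcription. The sequences run from 250 bases before to 50 bases after the start of the canonical transcript in GENCODE vM39 (GRCm39), 5′ to 3′ along the gene's own strand. They are shown for the 4 members with a cyclic AMP response element (CRE) or a variant of it, the site that Jun and ATF pairs bind, and for *Fos*, the founding member. Capitals mark every match, on either strand, to the letters TGACNTCA (CRE-like), TGACG (the shorter CRE core), GCGNGGGCG (the Egr1 site) and TATAAA (the TATA box).
Jund (chr8:71151349-71151648, plus strand): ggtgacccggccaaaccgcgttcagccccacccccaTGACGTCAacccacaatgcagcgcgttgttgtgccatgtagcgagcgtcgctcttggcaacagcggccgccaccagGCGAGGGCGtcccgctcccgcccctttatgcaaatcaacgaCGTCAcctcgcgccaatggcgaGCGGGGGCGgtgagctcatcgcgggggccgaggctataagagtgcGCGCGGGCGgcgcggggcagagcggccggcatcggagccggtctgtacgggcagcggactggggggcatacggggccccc
Ier2 (chr8:85389434-85389733, minus strand): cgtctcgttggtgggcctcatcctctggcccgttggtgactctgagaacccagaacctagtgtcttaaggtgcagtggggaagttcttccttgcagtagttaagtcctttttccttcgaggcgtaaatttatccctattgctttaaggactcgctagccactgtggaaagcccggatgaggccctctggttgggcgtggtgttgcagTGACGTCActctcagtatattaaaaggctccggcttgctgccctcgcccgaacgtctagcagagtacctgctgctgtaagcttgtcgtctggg
Jun (chr4:94940410-94940709, minus strand): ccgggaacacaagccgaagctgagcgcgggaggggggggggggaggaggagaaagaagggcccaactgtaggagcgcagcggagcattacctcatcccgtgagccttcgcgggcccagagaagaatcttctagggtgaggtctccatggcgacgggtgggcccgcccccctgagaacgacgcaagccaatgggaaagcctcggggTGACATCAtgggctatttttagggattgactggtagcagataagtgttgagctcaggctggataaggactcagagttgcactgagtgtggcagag
Dusp1 (chr17:26727444-26727743, minus strand): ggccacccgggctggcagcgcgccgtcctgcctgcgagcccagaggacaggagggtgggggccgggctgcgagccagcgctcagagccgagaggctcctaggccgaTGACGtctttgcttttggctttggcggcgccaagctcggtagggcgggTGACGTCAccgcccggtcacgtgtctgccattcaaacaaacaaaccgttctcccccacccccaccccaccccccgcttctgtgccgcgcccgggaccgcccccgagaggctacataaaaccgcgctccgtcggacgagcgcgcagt
Fos (chr12:85520408-85520707, plus strand): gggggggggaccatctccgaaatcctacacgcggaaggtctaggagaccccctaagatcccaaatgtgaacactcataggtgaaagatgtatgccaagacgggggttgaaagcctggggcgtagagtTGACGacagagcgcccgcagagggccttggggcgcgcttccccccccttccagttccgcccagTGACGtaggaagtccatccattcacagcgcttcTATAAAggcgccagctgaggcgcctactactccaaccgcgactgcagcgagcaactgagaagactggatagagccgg
A CRE-like site stood in 4 of 9 promoters searched (*Jund*, *Ier2*, *Jun* and *Dusp1*; that of *Egr1* was not searched), and in 8.43% of 21247 promoters of the same length. In *Jun* it read TGACATCA and began at position −45, where −1 is the base before the start. It read TGACGTCA and began at −43 in *Ier2*, at −96 in *Dusp1* and at −214 in *Jund*. The core TGACG, which is part of TGACGTCA and is counted within it too, was present in 7 of 9 promoters and in 22.5% of all. *Jund* held 3 matches to the Egr1 site (GCGAGGGCG, GCGGGGGCG and GCGCGGGCG), and *Fosb* held 1, against 6.18% of all promoters with at least 1. A TATA box stood in 2 of 9 promoters (*Fos* and *Junb*) and in 13.3% of all. The AP-1 site itself (TGANTCA, found in 7.20% of all promoters) and the CArG box (1.56%) had no match in the 9 windows. Sites farther than 250 bases before the start, and any site near *Egr1*, lay outside this search. A match is a description of the letters in this window and says nothing of binding in these tumors.

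The libraries differed in depth, and 2 of them stood apart. Total counts ranged from 8518428 to 18340980 with bexarotene and from 16196852 to 24020342 with vehicle, with 50.8% to 59.8% of each library in 18S ribosomal RNA (*Rn18s*). Protein-coding genes held 6.35% of the counts in Bexarotene 1 and 4.02% in Bexarotene 2, against 9.55% to 19.0% in the other 6 libraries. In the same pair *mt-Nd6*, which lies on the opposite strand to most mitochondrial genes, made up 23.2% and 33.1% of the counts of mitochondrial protein-coding genes, against 1.09% to 1.53% elsewhere. TMM scaling (trimmed mean of M values, edgeR's default) was applied, after which the effective sizes were 6338842 and 2367759 in Bexarotene 1 and 2 and at least 18313729 in the others. Fold changes of the members are therefore also given without these 2 libraries. T-lineage markers summed to between 168 and 187 CPM (counts scaled to a common effective library size) with bexarotene and between 151 and 205 CPM with vehicle, led by *Thy1*. B-lineage markers were at most 0.845 CPM, with *Ms4a1* at 0 in every library. The skin label held unevenly, since keratinocyte markers summed to 2.65 CPM in Vehicle 4 and to between 49.4 and 431 CPM elsewhere.

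No member passed an adjusted p of 0.05 in the comparison of bexarotene with vehicle, and neither did any other gene (edgeR's quasi-likelihood test with Benjamini-Hochberg adjustment, 0% of 11616 genes, smallest adjusted p = 0.976). At an unadjusted p under 0.05 the test held 1 of the 9 tested members, *Jund*, and 428 genes in all (3.68%), 277 of them higher and 151 lower with bexarotene. DESeq2 placed 3 genes past the adjusted threshold and 515 at an unadjusted p under 0.05, and limma-voom 0 and 399. None of the 3 DESeq2 genes past the adjusted threshold was a member. The fitted log2 fold change was above 0 in 6 members and below 0 in 3, with a median of 0.11, and it was above 0 in 46.5% of all genes, with a median of −0.03. For no member did the 4 bexarotene values lie all above or all below the 4 vehicle values, which was so for 2.83% of all genes. When counts were scaled to library totals only, the median over all genes was −0.66. Of the 6 members above 0, 5 (*Fos*, *Fosl2*, *Junb*, *Egr1* and *Ier2*) then fell below 0, though not below that median. Relative to the median of all genes, 6 of 9 members were above it under either scaling.

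**Figure D1:**
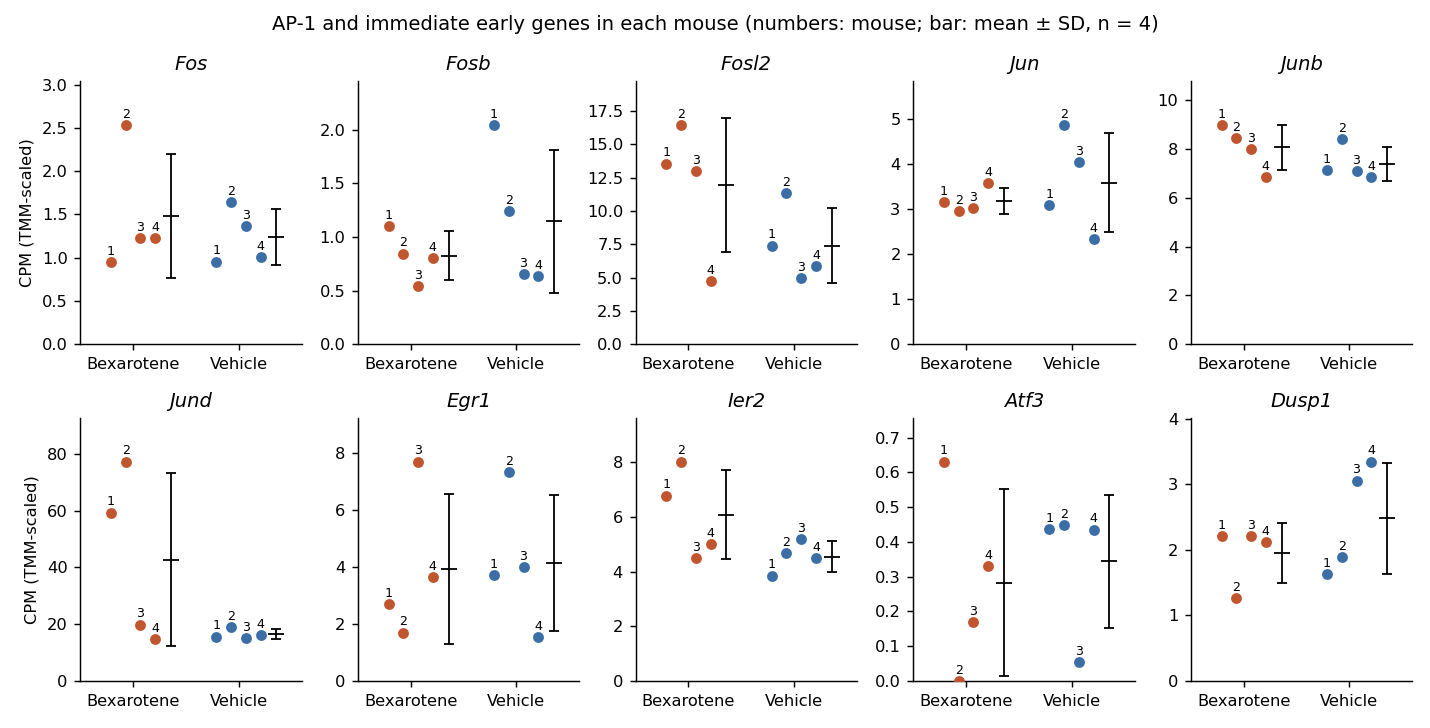
TMM-scaled CPM (vertical axes, each from 0) of the 10 members in each of 4 bexarotene-treated and 4 vehicle-treated mice. Points carry the mouse number and bars give mean ± SD. The groups overlapped for every member, and *Jund* stood at 59.3 and 77.3 CPM in Bexarotene 1 and 2, with the other 6 mice between 14.7 and 19.9 CPM.

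*Jund* was the member with the widest gap between group means. It lies on chromosome 8 (71151599 to 71153265, plus strand, GRCm39), as a single exon. Its level was 59.3, 77.3, 19.9 and 14.7 CPM in Bexarotene 1 to 4, against 15.6, 19.0, 14.96 and 16.2 CPM in Vehicle 1 to 4. Only Bexarotene 1 and 2 stood above the vehicle range by more than 1 CPM, and Bexarotene 4 lay below all 4 vehicle mice. The means were 42.8 ± 30.4 CPM with bexarotene and 16.4 ± 1.78 CPM with vehicle (SD, n = 4 each), a log2 fold change of 1.34 (SE 0.45, 95% interval 0.35 to 2.33, edgeR adjusted p = 0.976). The two-sided exact permutation test gave p = 0.2, where the smallest p it allows is 0.0286. The counts were 376 and 183 in Bexarotene 1 and 2, so counting error was small beside the gap. The exact 95% Poisson intervals, which cover counting error only, were 53.5 to 65.6 CPM and 66.5 to 89.3 CPM. Without these 2 mice the log2 fold change was 0.09 (SE 0.17, 95% interval −0.31 to 0.48), with means of 17.3 CPM in Bexarotene 3 and 4 and 16.4 CPM with vehicle. With total counts as the only scaling it was 0.12 over all 8 mice, beside a median of −0.66 over all genes tested. *Jund* thus lay 0.79 above the median of all genes under that scaling, and 1.37 above it under TMM. *Jund* made up 59.7% and 64.7% of the members' counts in Bexarotene 1 and 2, and between 31.2% and 37.98% in the other 6 mice.

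The other Jun genes did not follow *Jund* to that level. *Junb* (chromosome 8, 85701113 to 85705347, minus strand), whose product often opposes Jun in growth control, was at 8.99, 8.45, 7.99 and 6.84 CPM in Bexarotene 1 to 4, against 7.15, 8.40, 7.10 and 6.86 CPM in Vehicle 1 to 4. Its means, 8.07 ± 0.916 CPM with bexarotene and 7.38 ± 0.695 CPM with vehicle (SD, n = 4 each), lay closer together than the highest and lowest mouse of either group. The log2 fold change was 0.11 (SE 0.16, 95% interval −0.24 to 0.47), the narrowest interval of the 10 members. *Jun* (chromosome 4, 94937271 to 94940459, minus strand) was at 3.16, 2.96, 3.03 and 3.58 CPM with bexarotene, against 3.10, 4.87, 4.04 and 2.34 CPM with vehicle. The bexarotene-treated mice all lay within the vehicle range, at a log2 fold change of −0.15 (SE 0.35). Without Bexarotene 1 and 2 the log2 fold change was 0.02 (SE 0.15) for *Junb* and −0.10 (SE 0.31) for *Jun*. Per length and within a library, *Jund* was 2.96 to 12.6 times *Junb* with bexarotene and 2.91 to 3.27 times *Junb* with vehicle.

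Among the Fos genes, *Fosl2* (chromosome 5, 32293145 to 32315186, plus strand) encodes Fra-2. It was at 13.6, 16.5, 13.02 and 4.72 CPM in Bexarotene 1 to 4, against 7.41, 11.3, 4.97 and 5.86 CPM in Vehicle 1 to 4. The first 3 bexarotene-treated mice lay above every vehicle mouse and Bexarotene 4 below every one. The means were 11.9 ± 5.05 CPM with bexarotene and 7.39 ± 2.82 CPM with vehicle (SD, n = 4 each), with a log2 fold change of 0.63 (SE 0.36, 95% interval −0.17 to 1.43, edgeR adjusted p = 0.976). Without Bexarotene 1 and 2 it was 0.28 (SE 0.43). Without Bexarotene 4 alone, the groups of *Fosl2* and *Jund* did not overlap, 2 of 9 members against 8.25% of all genes tested in that fit. *Fos* (chromosome 12, 85520664 to 85524047, plus strand) was at 0.947, 2.53, 1.22 and 1.23 CPM with bexarotene, against 0.953, 1.64, 1.37 and 1.005 CPM with vehicle. Its highest value came from 6 counts in Bexarotene 2, with an exact 95% Poisson interval of 0.930 to 5.52 CPM. *Fosb* (chromosome 7, 19036621 to 19043976, minus strand) was at 1.10, 0.845, 0.544 and 0.802 CPM with bexarotene, against 2.05, 1.24, 0.655 and 0.636 CPM with vehicle. Vehicle 1 and 2 were its highest mice, and the log2 fold change was −0.60 (SE 0.47, 95% interval −1.63 to 0.43), which became −0.088 without Vehicle 1. Without Bexarotene 1 and 2 it was −0.79 (SE 0.57), and that of *Fos* was 0.01 (SE 0.32).

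*Egr1* spread widely within both groups. It was at 2.68, 1.69, 7.68 and 3.63 CPM in Bexarotene 1 to 4, against 3.71, 7.31, 3.99 and 1.54 CPM in Vehicle 1 to 4. Bexarotene 3 and Vehicle 2 were the high mice, and the groups covered nearly the same range. The means, 3.92 ± 2.63 CPM with bexarotene and 4.14 ± 2.38 CPM with vehicle (SD, n = 4 each), gave a fitted log2 fold change of 0.09 (SE 0.47, 95% interval −0.94 to 1.13), and it was 0.48 (SE 0.53) without Bexarotene 1 and 2. *Ier2* (chromosome 8, 85387960 to 85389483, minus strand) was at 6.78, 8.02, 4.49 and 4.999 CPM with bexarotene, against 3.85, 4.67, 5.19 and 4.49 CPM with vehicle. Bexarotene 1 and 2 were again the highest mice. Its log2 fold change was 0.34 (SE 0.22, 95% interval −0.13 to 0.82) over all 8 mice and 0.08 (SE 0.19) without Bexarotene 1 and 2. *Dusp1* (chromosome 17, 26724564 to 26781102, minus strand) was at 2.21, 1.27, 2.21 and 2.12 CPM with bexarotene, against 1.63, 1.89, 3.06 and 3.35 CPM with vehicle, with 3 counts behind the value of Bexarotene 2. The bexarotene-treated mice lay within or below the vehicle range, at a log2 fold change of −0.26 (SE 0.32), or −0.17 (SE 0.34) without Bexarotene 1 and 2. *Atf3* (chromosome 1, 190902493 to 190950236, minus strand), a stress-induced member of the ATF family, had 4, 0, 5 and 7 counts with bexarotene, against 22, 9, 1 and 13 counts with vehicle. The count of 0 in Bexarotene 2 allows a level of up to 1.27 CPM (3 counts), so absence could not be shown at this depth. In the fit without the filter its log2 fold change was −0.27 (SE 0.75, 95% interval −1.80 to 1.27), and without Bexarotene 1 and 2 it was −0.50 (SE 0.79).

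**Figure D2:**
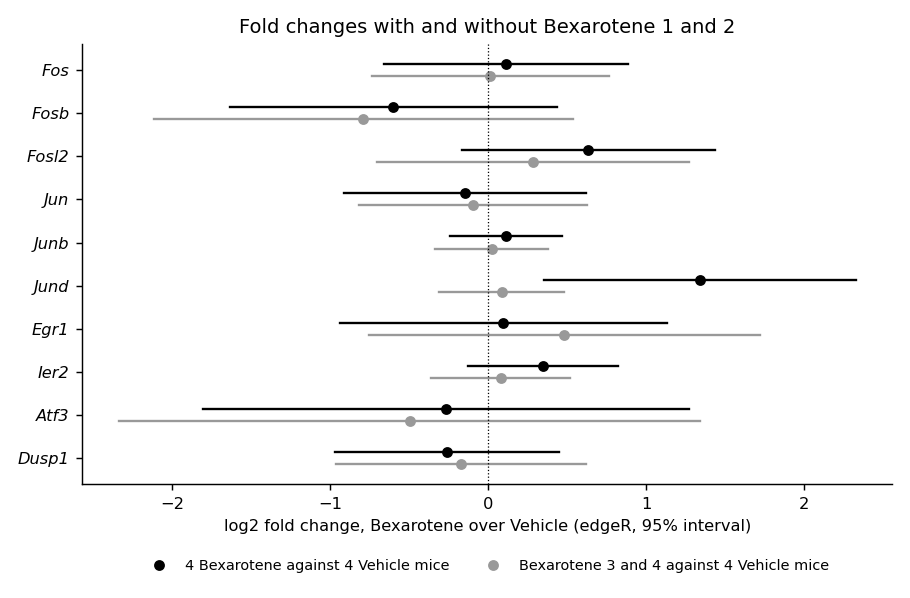
Log2 fold change of each member, bexarotene over vehicle (horizontal axis, points with 95% intervals from edgeR), over all 8 mice in black and without Bexarotene 1 and 2 in grey. *Jund* lay at 1.34 over 8 mice and at 0.09 over 6, and every other interval included 0 in both fits. *Atf3* comes from the fit without the filter over 8 mice, and values rest on TMM scaling (with total counts alone *Fos*, *Fosl2*, *Junb*, *Egr1* and *Ier2* lie below 0).

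Bexarotene 1 and 2 were the pair with the highest values of all 8 libraries for 4 of 9 tested members (*Fosl2*, *Junb*, *Jund* and *Ier2*), against 14.8% of all genes tested. They were the lowest pair for 0 members and for 17.5% of all genes. The part of depth and RNA quality in this pattern was not tested. GC content and exon number are given beside it, each without adjustment for the other, and their part was not tested either. The GC content of the canonical transcript was 67.2% for *Jund*, at percentile 99.8 of the genes tested, 62.6% for *Junb* and 60.9% for *Ier2*, and between 51.9% and 57.3% for the other members. *Jun*, *Junb*, *Jund* and *Ier2* are genes of 1 exon. Over all genes with a known GC content (11218 of 11616), the median log2 difference of Bexarotene 1 and 2 from Bexarotene 3 and 4 was −0.45 in the lowest of 10 equal bins by GC and 0.24 in the highest. The share of genes with Bexarotene 1 and 2 on top was 6.06% in the lowest bin and 28.3% in the highest. It was 26.4% among 216 genes of 1 exon and 13.4% among genes of 2 or more exons. *Jund* exceeded the median of its own bin, with a difference of 1.98, and 127 of the 11616 genes had a larger one. *Egr1*, in a bin with a median of 0.12, had a difference of −1.28, with 17 and 4 counts in Bexarotene 1 and 2. *Jun*, of 1 exon, had a difference of −0.11, with 20 and 7 counts in these 2 libraries. *Fosl2*, of 4 exons and a GC content of 54.2%, had a difference of 0.92.

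**Figure D3:**
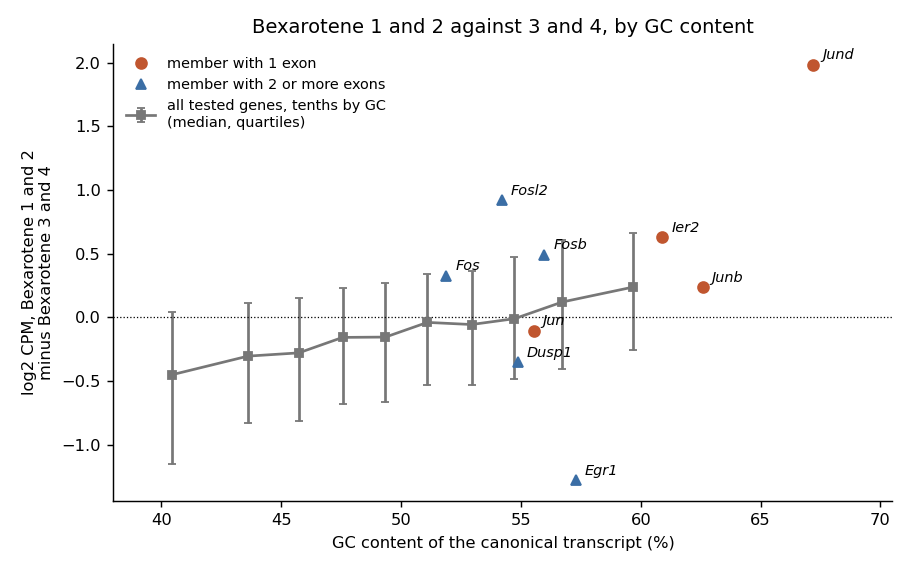
Log2 CPM of Bexarotene 1 and 2 minus that of Bexarotene 3 and 4 (vertical axis) against GC content of the canonical transcript (horizontal axis, %). Grey squares give the median and quartiles of all tested genes in 10 equal bins by GC, circles the members of 1 exon and triangles the other tested members. The median climbs with GC from −0.45 to 0.24, and *Jund* (1.98), *Fosl2* (0.92) and *Egr1* (−1.28) lie outside the quartiles of genes of like GC. *Egr1* rests on 17 and 4 counts in Bexarotene 1 and 2.

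The summed level of 10 fibroblast markers, most of it *Col1a1*, was highest in the same 2 libraries. It came to 895, 1700, 396 and 516 CPM in Bexarotene 1 to 4, against 442, 820, 424 and 277 CPM in Vehicle 1 to 4. Of the 10 markers, 3 had Bexarotene 1 and 2 as their highest pair, against 14.8% of all genes tested. By log2 fold change, 4 of the markers were above 0 and 6 below, at a median of −0.16. Over the 6 mice without Bexarotene 1 and 2, *Jund* and this sum had a Pearson correlation of 0.26 and a Spearman correlation of −0.26. The Pearson correlation was 0.91 within the 4 bexarotene-treated mice, which include the separate pair, and 0.71 within the 4 vehicle-treated mice. Their part in the *Jund* values was not tested. Antisense rows overlap some members, and whether counting used strand was not given in the sources used here, so that reads of overlapping genes may not be told apart. The antisense row over *Jund* (*Gm11175*) had at most 6 counts in any library. *Junb* overlaps *Prdx2*, *Jun* overlaps *Junos* (1 to 19 counts), and *Dusp1* overlaps *Ergic1* and *Gm8225*, so the values of these 4 members are less certain. *Dusp1* also overlaps *Gm50274* and *Gm50275* on its own strand, where strand cannot tell reads apart. Both of these rows had 0 counts in every library.

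Levels of different members were compared per length, in TPM (counts divided by gene length and by the library total of such values) within a library. TPM was computed over all rows, ribosomal RNA included, so it also depends on the share of messenger reads in a library. Only the order within a library was therefore read. *Jund* was the most abundant member, at a median of 9.64 TPM over 8 mice (5.11 to 15.7), and exceeded *Junb* in 8 of 8. *Junb* (2.82 TPM) and *Ier2* (2.72 TPM) came next and were not separable, with *Junb* ahead in 4 of 8 mice. *Ier2* exceeded *Jun* in 8 of 8. *Jun* (1.02 TPM), *Fosl2* (0.643 TPM), *Egr1* (0.623 TPM), *Dusp1* (0.519 TPM) and *Fos* (0.517 TPM) formed a middle group, in which each gene exceeded its next neighbor in 3 to 6 of 8 mice. *Fos* exceeded *Atf3* in 8 of 8. *Atf3* (0.118 TPM) and *Fosb* (0.112 TPM) were the lowest and traded places in 4 of 8 mice.

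**Figure D4:**
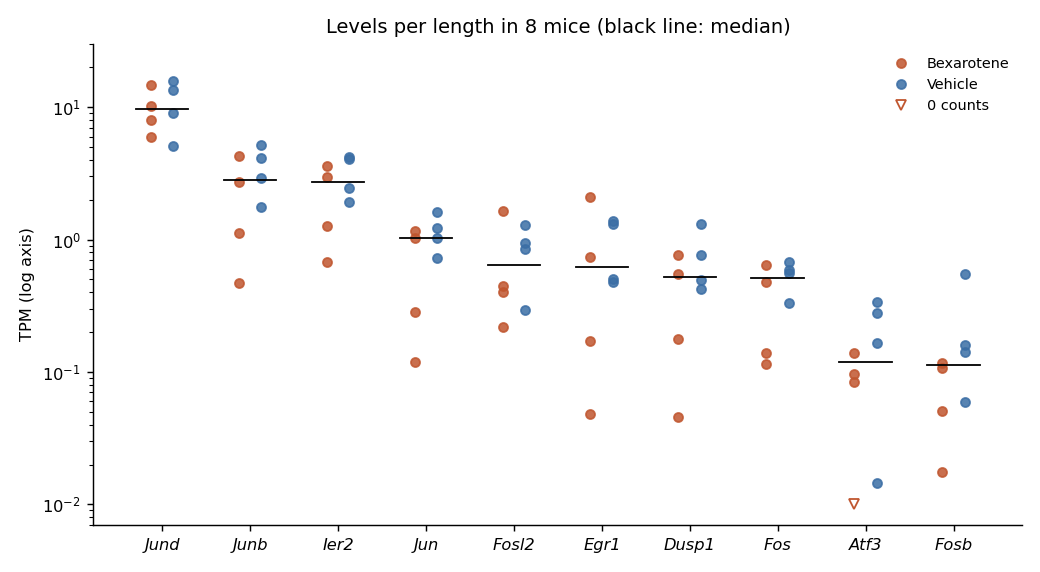
TPM (length-scaled level, log axis) of each member in 4 bexarotene-treated (left of each pair) and 4 vehicle-treated mice, with the median over 8 mice as a black line. *Jund* led at 9.64 TPM and *Atf3* and *Fosb* were lowest at 0.118 and 0.112 TPM. The open triangle marks the library with 0 *Atf3* counts. TPM here includes ribosomal RNA in the total, so heights compare genes within a mouse and not groups.

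Of 45 pairs of members correlated over log2 CPM in 8 mice, 0 passed an adjusted p of 0.05 by Pearson and 1 by Spearman (exact permutation over pairings, two-sided), 5 had an unadjusted Pearson p under 0.05, and the median Pearson correlation was 0.05. Because Bexarotene 1 and 2 formed a cluster of their own for *Jund*, its pairs were read over the other 6 mice. *Fosl2* and *Jund*, the pair past the Spearman threshold over 8 mice, had a Pearson correlation of 0.96 (exact p = 0.00833) and a Spearman correlation of 0.94 (exact p = 0.0167) over these 6 mice, and the 45 adjusted p-values there were all at or above 0.375. With 6 mice the smallest exact p is 0.00139, with which a single pair among 45 could not pass, so that no call is read from its absence. *Junb* and *Jund* had a Pearson correlation of 0.90 (exact p = 0.0458) and a Spearman correlation of 0.77 (exact p = 0.103) over the 6 mice. *Fosl2* and *Junb* had a Pearson correlation of 0.92 (exact p = 0.00858, adjusted p = 0.129) and a Spearman correlation of 0.93 (exact p = 0.00223, adjusted p = 0.0502) over 8 mice. That value was 0.90 without Bexarotene 4 and Vehicle 3, the mice farthest from the *Fosl2* median, 0.91 within the bexarotene-treated and 0.90 within the vehicle-treated mice. *Jund* and *Ier2* had a Pearson correlation of −0.20 over the 6 mice. No member other than *Fosl2* and *Jund* was in a pair past the adjusted threshold.

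The 10 members were correlated with the summed CPM of 9 lists of cell type markers, 90 relations that were chosen after their values had been seen, and 4 passed an adjusted Pearson p of 0.05 while 0 passed by Spearman. *Egr1* was in 3 of the 4, with adipocyte, keratinocyte and muscle markers. Bexarotene 2 and Vehicle 4 were the lowest mice in all 3 of these sums, so the 3 relations are not separate observations. Adipocyte markers summed to 3.47, 0.845, 10.6 and 5.09 CPM in Bexarotene 1 to 4, against 4.51, 12.3, 5.51 and 1.51 CPM in Vehicle 1 to 4, the high mice being those of *Egr1*. In Bexarotene 2 the sum came from 2 counts and *Egr1* from 4 counts. The Pearson correlation with *Egr1* was 0.98 (exact p = 0.00062, adjusted p = 0.0186), the Spearman correlation was 0.93 (exact p = 0.00223, adjusted p = 0.100), and the Pearson correlation was 0.99 without Bexarotene 2 and Vehicle 4. It was 0.97 within the 4 bexarotene-treated and 0.99 within the 4 vehicle-treated mice. Keratinocyte markers, led by *Dsp*, summed to 69.6, 49.4, 167 and 108 CPM with bexarotene, against 169, 431, 149 and 2.65 CPM with vehicle. Their Pearson correlation with *Egr1* was 0.82 (exact p = 0.00057, adjusted p = 0.0186), the Spearman correlation was 0.88 (exact p = 0.00724, adjusted p = 0.163), and the Pearson correlation was 0.86 without Vehicle 2 and 4. Skeletal muscle markers had a Pearson correlation of 0.90 (exact p = 0.00117, adjusted p = 0.0262) and a Spearman correlation of 0.95 (exact p = 0.00114, adjusted p = 0.100) with *Egr1*, and 0.89 by Pearson without Bexarotene 2 and 3. Within the bexarotene-treated and the vehicle-treated mice the Pearson correlations were 0.99 and 0.96 for keratinocyte and 0.97 and 0.93 for muscle markers.

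*Jun* varied with macrophage markers. These summed to 55.8, 45.2, 41.0 and 52.1 CPM in Bexarotene 1 to 4, against 43.4, 104.4, 64.5 and 30.3 CPM in Vehicle 1 to 4, with Vehicle 2 highest and Vehicle 4 lowest in both the sum and *Jun*. The Pearson correlation was 0.96 (exact p = 0.000496, adjusted p = 0.0186) and the Spearman correlation 0.90 (exact p = 0.00456, adjusted p = 0.137). It was 0.84 without Vehicle 2 and 4, 0.58 within the bexarotene-treated and 0.99 within the vehicle-treated mice. Over the 6 mice without Bexarotene 1 and 2, 0 of the 90 relations passed the adjusted threshold, with Pearson correlations of 0.98 for *Jun* and macrophage markers and of 0.99, 0.89 and 0.91 for *Egr1* and adipocyte, keratinocyte and muscle markers. A single relation among 90 could not have passed with 6 mice, though several at the smallest possible p could have passed together. Both quantities of each relation were scaled by the same library size.

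**Figure D5:**
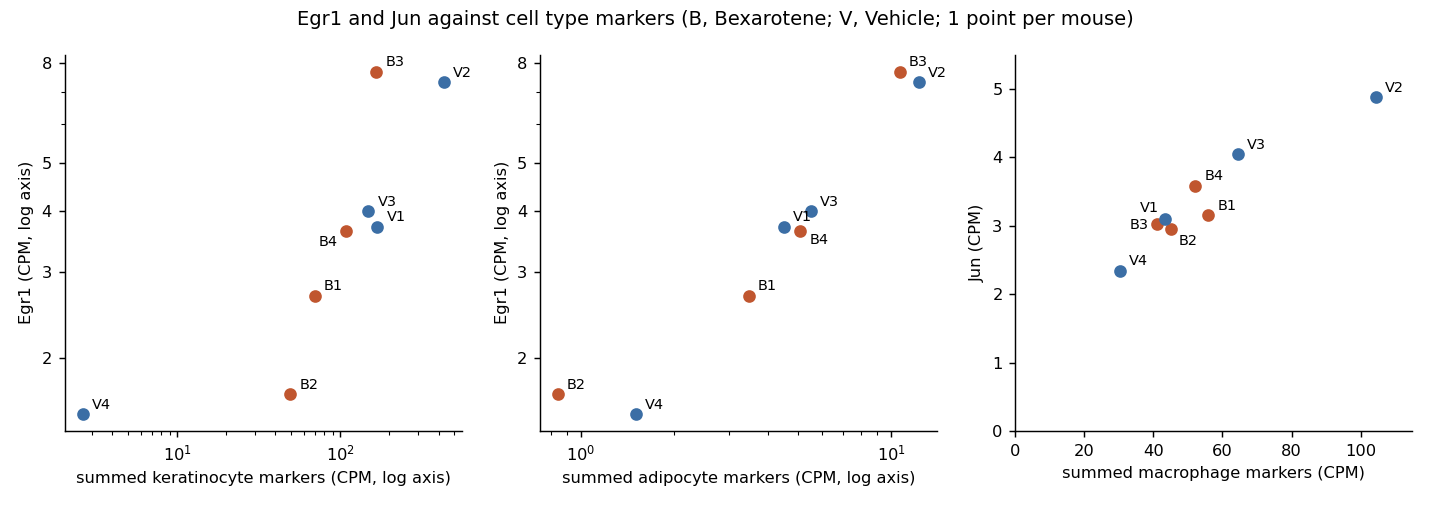
CPM of *Egr1* (left and center, log axes) and *Jun* (right, linear axes) against the summed CPM of keratinocyte, adipocyte and macrophage markers, 1 point per mouse (B, bexarotene-treated; V, vehicle-treated). *Egr1* was highest in Bexarotene 3 and Vehicle 2 and lowest in Bexarotene 2 and Vehicle 4, and *Jun* was highest in Vehicle 2 and lowest in Vehicle 4.

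The genes around the members were described from 5 other lists, in none of which a gene passed the adjusted threshold. Of 13 other genes whose basic leucine zipper proteins can pair with Fos or Jun, 9 were tested, 2 with a log2 fold change above 0 and 7 below, at a median of −0.22. *Atf2*, a partner of Jun at the CRE, was at 2.05, 2.11, 4.59 and 3.73 CPM in Bexarotene 1 to 4, against 5.14, 4.58, 5.30 and 6.09 CPM in Vehicle 1 to 4. Its log2 fold change was −0.63 (SE 0.25, edgeR adjusted p = 0.976). The groups met at 1 point, where Bexarotene 3 lay just above Vehicle 2, and Bexarotene 1 and 2 were the lowest mice. *Atf4*, the most abundant of the list and an effector of the integrated stress response, averaged 18.05 ± 4.07 CPM with bexarotene and 21.8 ± 6.32 CPM with vehicle (SD, n = 4 each). *Atf7*, a close relative of *Atf2*, averaged 6.46 ± 1.68 and *Maff*, a small Maf gene, 0.381 ± 0.259 CPM with bexarotene, against 7.89 ± 1.002 and 0.334 ± 0.0760 CPM with vehicle (SD, n = 4 each).

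Of 38 other immediate early genes, 35 were tested, 20 with a log2 fold change above 0 and 15 below, at a median of 0.15. Bexarotene 1 and 2 were the highest pair for 8 of these 35, against 14.8% of all genes tested. *Nr4a3*, an orphan nuclear receptor induced by antigen, was at 4.42, 4.22, 0.646 and 0.660 CPM in Bexarotene 1 to 4, against 0.854, 0.995, 0.655 and 0.703 CPM in Vehicle 1 to 4. Its log2 fold change of 1.33 (SE 0.64, edgeR adjusted p = 0.976) thus came from the libraries in which *Jund* was high. *Gadd45b*, a stress gene that acts on the p38 pathway, was at 0.631, 0.422, 0.578 and 0.519 CPM with bexarotene, against 0.973, 0.995, 0.546 and 1.71 CPM with vehicle. Only Vehicle 3 overlapped the bexarotene range, and the log2 fold change was −0.94 (SE 0.42, edgeR adjusted p = 0.976). The value in Bexarotene 2 lay below the level of 3 counts in that library (1.27 CPM). *Zfp36l1* and *Zfp36l2* encode proteins that promote decay of short-lived messages. *Zfp36l1* averaged 13.3 ± 2.98 CPM with bexarotene and 18.7 ± 5.81 CPM with vehicle, and *Zfp36l2* averaged 47.6 ± 19.9 CPM with bexarotene and 33.7 ± 7.15 CPM with vehicle (SD, n = 4 each). *Myc* averaged 34.7 ± 7.22 CPM with bexarotene and 31.0 ± 2.71 CPM with vehicle (SD, n = 4 each).

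Of 10 dual specificity phosphatases other than *Dusp1*, 8 were tested, 6 above 0 and 2 below, at a median log2 fold change of 0.21. *Dusp2*, an early gene of activated T cells, was at 2.52, 5.49, 0.714 and 0.896 CPM in Bexarotene 1 to 4, against 0.675, 0.796, 1.64 and 0.603 CPM in Vehicle 1 to 4. *Dusp4* averaged 1.80 ± 1.37 CPM with bexarotene and 0.894 ± 0.240 CPM with vehicle, and *Dusp6*, a cytoplasmic phosphatase, averaged 4.75 ± 1.57 CPM with bexarotene and 3.52 ± 0.227 CPM with vehicle (SD, n = 4 each). *Dusp7* averaged 5.45 ± 1.02 CPM with bexarotene and 6.18 ± 1.65 CPM with vehicle (SD, n = 4 each). Of 24 kinases and factors upstream of immediate early genes, 23 were tested, 10 above 0 and 13 below, at a median of −0.04. *Rps6ka5* (MSK1, which phosphorylates histone H3 and CREB at these genes) was at 5.05, 1.69, 2.96 and 1.75 CPM with bexarotene, against 2.26, 1.39, 1.53 and 1.41 CPM with vehicle, with a log2 fold change of 0.79 (SE 0.36, edgeR adjusted p = 0.976). *Rps6ka3* (RSK2) averaged 18.6 ± 4.43 CPM with bexarotene and 25.2 ± 6.01 CPM with vehicle, and *Map2k3* averaged 6.21 ± 0.903 CPM with bexarotene and 4.85 ± 0.842 CPM with vehicle (SD, n = 4 each).

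Of 23 genes known for AP-1 sites in their control regions, 16 were tested, 4 with a log2 fold change above 0 and 12 below, at a median of −0.32. Among cell type markers, 9 of 10 for macrophages (median −0.43) and 4 of 4 for neutrophils (−0.83) lay below 0. So did 11 of 12 for keratinocytes (−0.76). Other markers lay above 0, with 7 of 8 for skeletal muscle (0.97) and 7 of 10 for the T lineage (0.15). Endothelial markers lay above 0 for 6 of 7 (0.07). The muscle markers summed to 14.0, 2.53, 88.0 and 33.3 CPM in Bexarotene 1 to 4. In Vehicle 1 to 4 their sums were 21.3, 37.9, 36.1 and 8.44 CPM. Their highest sum was thus in Bexarotene 3, and their lowest, from 6 counts, in Bexarotene 2. Adipocyte and red blood cell markers each had 2 above and 2 below, and fibroblast markers 4 above and 6 below. The part of cell types in the list's values was not tested. *Mmp13* and *Mmp12*, matrix proteases made by fibroblasts and macrophages, were among the target genes below 0. *Mmp13* was at 0.631, 0.422, 0.238 and 0.849 CPM in Bexarotene 1 to 4, against 0.616, 1.79, 1.69 and 2.78 CPM in Vehicle 1 to 4, a log2 fold change of −1.66 (SE 0.56, edgeR adjusted p = 0.976). Vehicle 1 lay inside the bexarotene range, and the value in Bexarotene 2 lay below the level of 3 counts there (1.27 CPM). *Mmp12* was at 0.316, 0, 0.782 and 0.283 CPM with bexarotene, against 0.556, 2.54, 1.04 and 1.47 CPM with vehicle, a log2 fold change of −1.56 (SE 0.59, edgeR adjusted p = 0.976). The value of 0 in Bexarotene 2 allows up to 1.27 CPM (3 counts). *Plaur*, the urokinase receptor gene, was at 2.84, 2.11, 2.38 and 1.18 CPM with bexarotene, against 1.31, 0.945, 0.655 and 1.34 CPM with vehicle, a log2 fold change of 0.94 (SE 0.36, edgeR adjusted p = 0.976), and Bexarotene 4 lay within the vehicle range. *Vim*, the most abundant gene of this list and the intermediate filament of mesenchymal and lymphoid cells, had groups that did not overlap. It was 1 of 91 tested genes of the 5 lists (1.10%), against 2.83% of all genes. *Vim* was at 69.6, 66.3, 75.5 and 64.9 CPM with bexarotene, against 59.1, 63.4, 61.0 and 58.0 CPM with vehicle, a log2 fold change of 0.19 (SE 0.16, edgeR adjusted p = 0.976). *Mt1* averaged 42.2 ± 14.1 CPM with bexarotene and 51.8 ± 14.1 CPM with vehicle (SD, n = 4 each). Bexarotene 1 and 2 were the highest pair for 0 of 16 target genes and 0 of 9 basic leucine zipper genes tested. They were so for 2 of 8 phosphatases and 4 of 23 upstream kinases and factors, against 14.8% of all genes tested.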

How the data were processed

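RNA was depleted of ribosomal RNA and made into directional libraries, though 18S ribosomal RNA still held 50.8% to 59.8% of the counts of each library. The submitters' processing notes name Trimmomatic 0.30 for trimming, HISAT2 2.0.1 for alignment to GRCm39 and HTSeq 0.6.1 for counting. The authors deposited unscaled whole-number counts for each gene. The strand setting was not given in the sources used here.

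Tests were run in edgeR 4.0.16 (R 4.3.3): filterByExpr (minimum count 10, total 15), TMM scaling and a quasi-likelihood comparison of 4 bexarotene-treated with 4 vehicle-treated mice, adjusted over 11616 genes. The procedure was tested on simulated data. The SE was derived from the fold change and its p. Exact permutation used 70 assignments, and correlations used log2 CPM with a prior count of 2. TPM used the deposited lengths. Alternatives covered scaling, filters, rows, DESeq2 1.42.0, limma-voom (limma 3.58.1), a replicate block and libraries left out. Promoters were read from GRCm39. The genes named were the 10 members and, in each further list, the 3 of smallest p and the 2 of highest abundance, of which 1 gene is not reported here. The members and lists were chosen with earlier results of these data known. P-values measure the spread between these mice.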

Additional observations from a re-analysis of the deposited data

Results flagged for a closer look

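Among the 20 groups of 4 values checked (10 members in 2 groups), 2 held a mouse far from the other 3, judged by its gap to the nearest mouse over the whole range of the group. Chance flags about 1 in 20 such groups. *Atf3* was at 0.0546 CPM in Vehicle 3, against 0.435 to 0.448 CPM in the other vehicle-treated mice, a gap of 0.969 of the range that rests on 1 count. *Dusp1* was at 1.27 CPM in Bexarotene 2, against 2.12 to 2.21 CPM in the other bexarotene-treated mice, a gap of 0.908 of the range that rests on 3 counts and has an exact 95% Poisson interval of 0.261 to 3.70 CPM.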

How the results depend on the processing

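No member passed the adjusted threshold under any alternative run, and no gene of any list did. Genes past it numbered 3 with DESeq2 and 0 in every other fit. The members' median log2 fold change was −0.48 with total counts only and 0.39 with at least 10 counts in every library, where fewer members were tested. Leaving out 1 library gave 0 to 2 members with groups that did not overlap (2 without Bexarotene 4, beside 8.25% of all genes tested), against 3.95% to 9.27% of all genes over these fits. With total counts only, the sign turned for *Fos* (−0.48), *Fosl2* (−0.14), *Junb* (−0.57), *Egr1* (−0.20) and *Ier2* (−0.40), all beside a median of −0.66 over all genes, and 21 pairs of members and 36 relations with markers passed the adjusted threshold. Without Bexarotene 1 and 2 that number was 0 for both, beside 0 pairs and 4 relations as reported. With 6 mice a single pair or relation could not pass, though several at the smallest possible p could pass together. No conclusion on stability is drawn from these counts. Without those 2 and Vehicle 4, the sign turned for *Fos* (−0.081), *Junb* (−0.020) and *Dusp1* (0.0062). It turned for *Egr1* in DESeq2 (−0.00032) and for *Jun* (0.011), *Atf3* (0.17) and *Dusp1* (0.088) in limma-voom. With 1 library left out, log2 fold changes ran from −0.088 to 0.27 for *Fos*, −0.78 to −0.088 for *Fosb*, −0.47 to 0.52 for *Egr1*, −0.29 to 0.037 for *Jun*, −0.67 to 0.032 for *Atf3* and 0.90 to 1.66 for *Jund*. In CPM, not divided by length, 4 of 10 members kept their rank. The cause of these changes was not tested beyond what each setting removes. Replicate numbers are shared between groups in the labels, but mice of the same number did not deviate together (correlations of −0.08, −0.09, −0.07 and 0.0015). With a replicate block 0 genes passed, *Jund* was at 1.05 and *Atf3* at 0.0031. Few counts limit *Fos*, *Fosb*, *Atf3* and *Dusp1* in Bexarotene 1 and 2, and *Egr1* (4 counts) and *Jun* (7 counts) in Bexarotene 2.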
